A study of Mus musculus with 6 samples.

Results

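The cholesterol synthesis and SREBP genes are a list of 33 mouse genes that holds the enzymes of the sterol pathway, the SREBP factors with their regulators, fatty acid genes that SREBP factors control, and genes of sterol transport. They were chosen by name, not by their measured values, though with earlier results of these data known. Of the 33, 32 had a row in the table of 37620 genes and all 32 passed the filter on low counts, as did 16023 genes in all. The level of *Hmgcs1*, the HMG-CoA synthase gene, was not analysed here. PolyA RNA was sequenced from E14 mouse embryonic stem cells (ESCs), a line of strain 129/Ola, with 3 wild-type libraries and 3 from *Ube2d3*-S138A cells. The S138A mutation puts alanine in place of a serine that can be phosphorylated in the ubiquitin-conjugating enzyme UBE2D3. Both genotypes grew in 15% fetal bovine serum, which carries lipoprotein cholesterol, and each library was prepared from 500 ng of RNA. Mutant cells were made by genome editing and selected as clones, and whether the 3 mutant libraries share a clone or the libraries come from separate cultures is not stated. Mutation and clone therefore cannot be told apart, and the p-values measure the spread between libraries, which may be technical. The wild-type libraries are called 1 to 3 and the S138A libraries, whose columns carry no replicate number of the labels, A to C.

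Cholesterol is built from acetyl-CoA through mevalonate, isoprenoid diphosphates, squalene and lanosterol. The genes of this pathway are switched on by SREBP transcription factors, which are made as precursors held in the endoplasmic reticulum by SCAP and the INSIG proteins. When membrane sterol falls, SCAP carries the precursor to the Golgi, where it is cleaved, and the released factor enters the nucleus and raises sterol and fatty acid genes, *Insig1* and the SREBP genes among them. Sterol excess acts through the LXR receptors, raising exporters such as *Abca1* and the ligase gene *Mylip*, whose product degrades lipoprotein receptors.

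The promoters of 6 members are shown because they mark the ends of the second comparison below, the 4 largest rises and the 2 falls among members with a single listed start. That of *Hmgcs1* is shown as the only member whose window held the sterol regulatory element as searched. Each is a window of 300 bases, from 250 before to 50 after a start listed by RefSeq, in build GRCm38.p6. *Insig1* lies at chr5:28071162-28071461 (plus strand), *Msmo1* at chr8:64733529-64733828 (minus), *Tm7sf2* at chr19:6067801-6068100 (minus), *Fads2* at chr19:10101454-10101753 (minus), *Ebp* at chrX:8193463-8193762 (minus), *Nr1h2* at chr7:44553916-44554215 (minus) and *Hmgcs1* at chr13:119690101-119690400 (plus). Capitals mark a match on either strand to the sterol regulatory element TCACNCCAC, the CCAAT box CCAAT, the E-box CACGTG or the GC box GGGCGG, and 0 bases fell in matches of more than a single motif.
Insig1: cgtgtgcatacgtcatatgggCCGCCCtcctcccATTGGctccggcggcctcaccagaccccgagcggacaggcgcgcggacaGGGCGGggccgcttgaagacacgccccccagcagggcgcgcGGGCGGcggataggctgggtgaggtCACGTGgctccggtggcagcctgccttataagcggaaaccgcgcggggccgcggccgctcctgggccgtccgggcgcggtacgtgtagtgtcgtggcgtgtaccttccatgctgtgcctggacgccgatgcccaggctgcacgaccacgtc
Msmo1: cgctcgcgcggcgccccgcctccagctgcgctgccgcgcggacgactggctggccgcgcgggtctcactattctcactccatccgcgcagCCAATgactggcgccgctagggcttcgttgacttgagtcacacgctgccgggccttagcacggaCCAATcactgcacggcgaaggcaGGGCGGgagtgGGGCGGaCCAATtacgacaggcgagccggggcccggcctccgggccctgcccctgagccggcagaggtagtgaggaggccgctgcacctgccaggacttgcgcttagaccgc
Tm7sf2: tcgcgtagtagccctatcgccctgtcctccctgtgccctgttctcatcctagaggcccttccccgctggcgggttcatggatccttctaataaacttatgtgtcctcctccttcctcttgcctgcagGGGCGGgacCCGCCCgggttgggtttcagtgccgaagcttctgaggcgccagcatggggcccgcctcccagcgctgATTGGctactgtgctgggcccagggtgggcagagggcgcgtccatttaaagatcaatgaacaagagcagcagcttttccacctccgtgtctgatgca
Fads2: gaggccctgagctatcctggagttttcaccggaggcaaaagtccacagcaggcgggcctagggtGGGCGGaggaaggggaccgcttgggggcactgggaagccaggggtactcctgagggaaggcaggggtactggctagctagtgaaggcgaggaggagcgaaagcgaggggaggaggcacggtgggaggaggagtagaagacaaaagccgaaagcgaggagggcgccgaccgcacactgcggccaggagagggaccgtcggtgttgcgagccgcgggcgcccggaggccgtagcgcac
Ebp: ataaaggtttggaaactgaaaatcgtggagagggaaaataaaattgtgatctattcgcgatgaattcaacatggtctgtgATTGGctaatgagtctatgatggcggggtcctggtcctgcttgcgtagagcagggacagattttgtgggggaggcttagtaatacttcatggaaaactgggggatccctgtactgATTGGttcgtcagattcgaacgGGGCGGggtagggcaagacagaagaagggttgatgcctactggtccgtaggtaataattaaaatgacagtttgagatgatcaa
Nr1h2: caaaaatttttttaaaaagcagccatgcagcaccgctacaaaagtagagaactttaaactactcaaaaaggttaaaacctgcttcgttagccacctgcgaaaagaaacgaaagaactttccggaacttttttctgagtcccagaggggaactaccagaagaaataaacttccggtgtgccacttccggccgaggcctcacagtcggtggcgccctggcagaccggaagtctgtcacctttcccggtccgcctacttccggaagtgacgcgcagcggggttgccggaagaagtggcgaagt
Hmgcs1: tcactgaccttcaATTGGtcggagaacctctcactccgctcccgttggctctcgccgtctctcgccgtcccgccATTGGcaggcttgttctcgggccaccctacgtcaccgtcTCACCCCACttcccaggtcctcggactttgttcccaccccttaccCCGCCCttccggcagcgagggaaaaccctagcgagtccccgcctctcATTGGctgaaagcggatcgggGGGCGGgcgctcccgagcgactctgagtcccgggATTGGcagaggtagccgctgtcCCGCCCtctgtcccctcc

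RefSeq windows were matched for 26 of the 33 members, and a gene with several listed starts was counted where any of its windows held the motif. The CCAAT box, bound by the factor NF-Y, was found in 20 of these 26 members (76.9%), against 41.1% of 27025 genes with a window. Among those of the 27025 that were tested the share was 43%. The GC box, bound by SP1, was found in 22 (84.6%), against 38.2% of all genes and 67.5% of tested genes. The E-box was found in 6 (23.1%), against 8.09% and 11.4%, and the sterol regulatory element in 1 (3.85%), against 1.44% and 1.42%. *Insig1* held a CCAAT box, an E-box and 3 GC boxes, whereas *Msmo1* held 3 CCAAT boxes and 2 GC boxes. *Fads2* held a GC box only, and *Nr1h2* held no match. *Ebp*, which moved against most sterol enzymes below, held 2 CCAAT boxes and a GC box. These matches are counts of letters, not of bound sites.

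The libraries held 33227593 to 37169770 counts. Levels are TMM-scaled CPM, the counts of a gene relative to the size of its library. A gene was called where edgeR's quasi-likelihood test gave a p under 0.05 after Benjamini-Hochberg adjustment over all genes tested. A principal component analysis of all tested genes other than the members put wild-type 3 and S138A C apart from the other 4 libraries on its first component (61.1% of the variance, scores of 30.3 and 48.3 against -21.3 to -18.2) and separated the genotypes on its second (26%). This split was known from the same libraries beforehand. Calls between the 2 libraries and the other 4 therefore describe the size of a difference against the spread and are no independent test. *Ube2d3* itself was at 473, 459 and 304 CPM in wild-type 1 to 3 and at 491, 429 and 265 CPM in S138A A to C, a log2 difference between the genotypes of -0.06 (SE 0.26). A substitution of this kind need not change the level of the RNA, so this level does not check the labels.

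The sterol and SREBP genes were expressed in all 6 libraries. Per kilobase of exon in wild-type ESCs, the highest level was that of the stearoyl-CoA desaturase *Scd2* at 132 ± 39.6 CPM per kb, followed by the fatty acid synthase *Fasn* at 69.9 ± 5.14, *Insig1* at 39.6 ± 18.5, *Acat2* at 30.8 ± 2.2 and *Fdps* at 27.5 ± 5.28 (SD, n = 3). The lowest were the sterol reductase *Tm7sf2* at 1.63 ± 0.612, *Mylip* at 2.4 ± 0.764 and *Abca1* at 3.04 ± 0.34 CPM per kb. *Insig1* and *Acat2*, *Acat2* and *Fdps*, and *Mylip* and *Abca1* were neighbours in this order whose levels differed by less than the larger SD of each pair. Between replicates 1 and 2 of the wild type the members differed by a median of 0.06 on the log2 scale, and at most by 0.38, and between S138A A and B by a median of 0.08 and at most 0.25.

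The first comparison asked whether the S138A cells differ from wild-type ESCs. None of the 32 members was called between the genotypes by edgeR, where 0% of the 16023 genes were called (0 genes, with 2270 genes at an unadjusted p under 0.05, 1 of them a member, and 0 genes called by limma-voom). The log2 differences ran from -0.27 to 0.59 with a median of -0.01, against a median of 0.0172 over all genes, and 15 members lay above 0 and 17 below. This median moved most without wild-type 3, to 0.21, and without S138A C, to -0.31. It was 0.12 and 0.10 without S138A A or S138A B, and -0.10 and -0.09 without wild-type 1 or wild-type 2. Without S138A C, 79 genes but no member were called. For 25 of the 32 members the sign of the genotype difference turned when 1 library was left out. DESeq2 called 794 genes (4.96%), 1 member among them, *Scap* (3.12% of the members). *Scap* and *Mvk* were higher in all 3 S138A libraries than in all 3 wild-type libraries, as were 11.3% of all genes, and *Acaca* was lower in all 3, as were 10.9%.

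*Scap* (ENSMUSG00000032485), the escort of the SREBP precursors, had the largest difference between the genotypes of any member. It was at 39.7, 42.8 and 44.6 CPM in the wild-type libraries and at 60.1, 62.4 and 69 CPM in S138A A to C. Every mutant library was above every wild-type library, and the spread within each genotype was small, with means of 42.3 ± 2.47 and 63.8 ± 4.59 CPM (SD, n = 3 each). The log2 difference was 0.59 (SE 0.10, 1.51-fold, adjusted p = 0.175 in edgeR), and p was 0.1 in a two-sided exact permutation test, which cannot go lower with 3 against 3 libraries. *Scap* was called by DESeq2 (adjusted p = 9.33e-05), by edgeR with the replicate block (adjusted p = 0.00589) and by edgeR with a term that sets S138A C and wild-type 3 apart (adjusted p = 0.00121). A gene model on the other strand, 5830462I19Rik, overlaps 13.2% of the exonic length of *Scap*, and whether counting used the strand is not stated.

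A further 3 fits took up the spread that wild-type 3 and S138A C bring. With the final digit of the column name as a replicate block, edgeR called 19.8% of all genes and 4 of the 32 members (12.5%), with *Scap*, *Srebf1* and *Scd2* higher in S138A cells and *Acaca* lower. With a term that sets this pair of libraries apart it called 27.6% of all genes and 6 members (18.8%), the same 4 with *Srebf2* higher (log2 0.26, adjusted p = 0.0489) and *Idi1* lower (log2 -0.25, adjusted p = 0.0317). In the 4 other libraries alone it called 29.6% of all genes and 12 members (37.5%). Of these, *Scap* (0.57), *Srebf1* (0.31) and *Scd2* (0.25) were higher in S138A A and B on the log2 scale. The other 9 were lower, namely the early enzymes *Acat2* (-0.21), *Idi1* (-0.33) and *Fdps* (-0.25), the regulator *Insig1* (-0.29), the fatty acid genes *Acaca* (-0.24), *Fads1* (-0.20) and *Fads2* (-0.44), and the transport genes *Stard4* (-0.27) and *Abca1* (-0.41). In all 6 libraries the edgeR log2 differences of these 9 members ran from -0.27 to 0. The share of members called was below the share of all genes in the fit with the block and in the fit with the term, and above it in the 4 libraries.

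In edgeR's fit with no further term, none of the SREBP control genes was called between the genotypes. *Srebf1* (ENSMUSG00000020538), which encodes the factor best known for fatty acid genes, was at 49.2, 58.2 and 81.3 CPM in wild-type cells and at 62.6, 70.8 and 101 CPM in S138A cells. Each mutant library was above the wild-type library of the same digit, but the genotypes overlapped, with a log2 difference of 0.31 (SE 0.24) that was called with the block (adjusted p = 0.0209, edgeR). *Srebf2* (ENSMUSG00000022463), which encodes the factor best known for sterol genes, was at 144, 151 and 218 CPM and at 158, 165 and 309 CPM, a log2 difference of 0.30 (SE 0.30). It was likewise higher in each mutant library than in the library of the same digit, and was not called with the block (adjusted p = 0.0847, edgeR). Without S138A C the log2 difference of *Srebf2* was -0.09. The digits come from the column names and are no stated pairing of libraries. *Insig1* (ENSMUSG00000045294) had the same mean of 122 CPM in both genotypes, with SDs of 57.2 and 84.6 (n = 3 each), since wild-type 3 and S138A C lay far above the rest. *Insig2*, its partner that answers less to sterol, was at 20.6 ± 1.18 and 21 ± 1.32 CPM (SD, n = 3 each). Per kilobase, the ratio of *Scap* to *Srebf2* was 0.266, 0.274 and 0.197 in wild-type 1 to 3 and 0.368, 0.365 and 0.215 in S138A A to C. The ratio was lowest in wild-type 3 and S138A C, and within each digit it was higher in the mutant library.

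**Figure D1:**
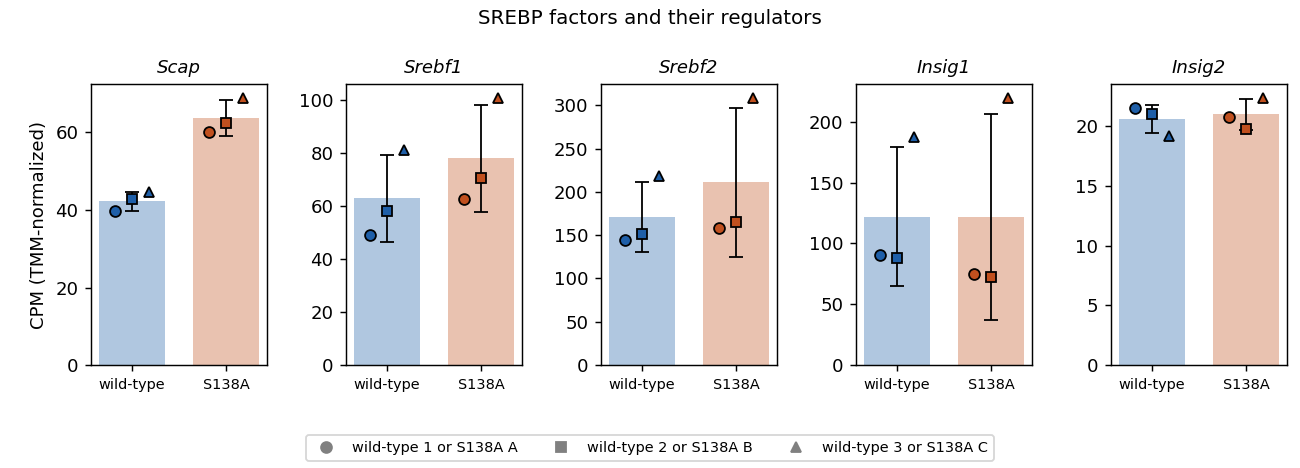
TMM-normalized CPM of *Scap*, *Srebf1*, *Srebf2*, *Insig1* and *Insig2* in wild-type and S138A ESCs, where bars are means, error bars the SD of 3 libraries and points single libraries. *Scap* separates the genotypes (39.7 to 44.6 against 60.1 to 69 CPM), whereas *Insig1* is high in S138A C (220 CPM) and wild-type 3 (188 CPM) and low in the other 4 libraries.

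Among other members called between the genotypes in some fit, *Acaca*, *Scd2* and *Idi1* differed by less than *Scap*. *Acaca*, the acetyl-CoA carboxylase gene, was at 104, 102 and 128 CPM in wild-type cells and at 93.1, 82.1 and 102 CPM in S138A cells. The highest mutant value lay just under the lowest wild-type value, with a log2 difference of -0.27 (SE 0.13, adjusted p = 0.415 in edgeR and 0.037 with the block). *Scd2* was at 596, 601 and 974 CPM and at 723, 701 and 1160 CPM, a log2 difference of 0.25 (SE 0.27, adjusted p = 0.72 in edgeR and 0.0283 with the block). *Idi1*, the isopentenyl diphosphate isomerase gene, was at 48.3, 49.7 and 54.6 CPM and at 40, 38 and 50.8 CPM, with a log2 difference of -0.25 (SE 0.14). *Mvk*, the mevalonate kinase gene, was called in no fit, though its groups did not overlap, at 13.5, 10.8 and 13.3 CPM and 14, 14.5 and 17.8 CPM. Its log2 difference was 0.30 (SE 0.17, adjusted p = 0.471 in edgeR), and the lowest mutant value lay just above the highest wild-type value. The log2 difference was below its SE for *Tm7sf2* (0.17, SE 0.48), *Lss* (0.18, SE 0.26), *Sc5d* (-0.10, SE 0.22), *Sqle* (-0.05, SE 0.18) and *Mylip* (-0.20, SE 0.33). That of *Nr1h2* was above its SE (0.16, SE 0.12) and was not called (adjusted p = 0.602 in edgeR and 0.126 with the block). For a further 11 members they ran from -0.08 to 0.14, with a lowest adjusted p of 0.738 in edgeR.

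The second comparison set S138A C and wild-type 3 against the remaining 4 libraries, with genotype in the model. Here 25 of the 32 members were higher (78.1%, where 25.9% of all genes were called higher) and 2 were lower (6.25%, where 25.2% of all genes were called lower), while 5 were not called. The members' log2 differences ran from -0.34 to 1.44, with a median of 0.64 (1.56-fold), against a median of -0.00119 over all genes. Both libraries lay above all of the other 4 for 24 members, where this held for 24.6% of all genes. They lay below all of the other 4 for 2 members, where this held for 24.4%. By role, 5 of 6 early mevalonate genes, 3 of 3 squalene and lanosterol genes, 7 of 8 sterol-step genes, 3 of 5 control genes, 5 of 6 fatty acid genes and 2 of 4 transport and LXR genes were higher. Summed over the 17 sterol enzymes measured, the level was 773, 752 and 1110 CPM in wild-type 1 to 3 and 707, 693 and 1230 CPM in S138A A to C. In these bulk libraries a change in the share of cells that express a gene and a change in RNA per cell cannot be told apart.

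**Figure D2:**
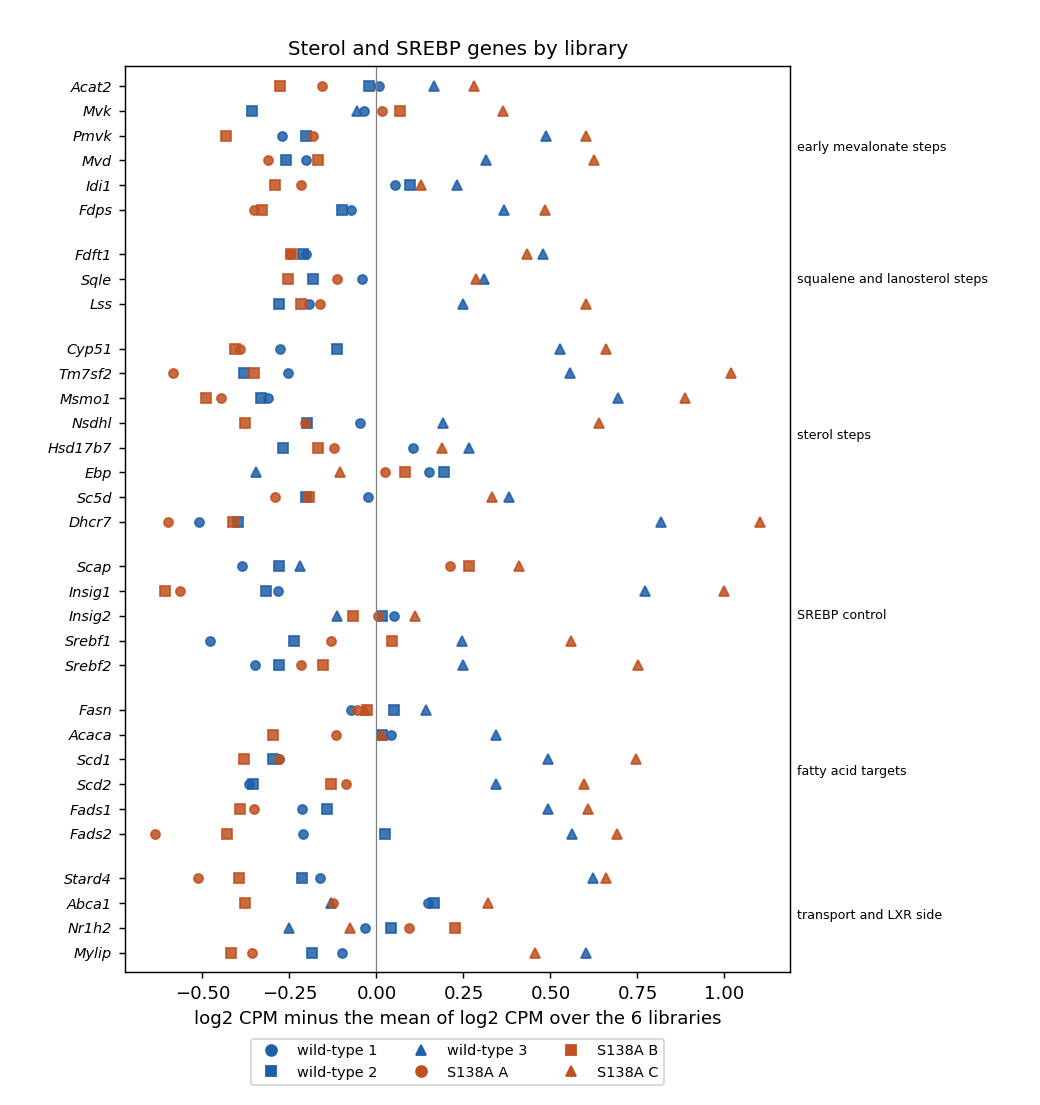
Levels of the 32 measured members in each of the 6 libraries, as log2 CPM minus the gene's mean over the libraries, grouped by role. Triangles mark wild-type 3 and S138A C, which lie above the other 4 libraries for 24 members and below them for *Ebp* and *Nr1h2*.

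Of the early mevalonate genes the phosphomevalonate kinase *Pmvk* differed most. It was at 14.3, 15 and 24.2 CPM in wild-type 1 to 3 and at 15.2, 12.8 and 26.2 CPM in S138A A to C, a log2 difference of 0.82 (SE 0.10). The decarboxylase *Mvd*, which makes isopentenyl diphosphate, was at 32.8, 31.5 and 46.9 CPM and at 30.4, 33.6 and 58.2 CPM (log2 0.71, SE 0.09). Both genes were thus near a common level in 4 libraries and raised in the same 2. *Fdps*, the farnesyl diphosphate synthase gene, was at 104, 102 and 141 CPM and at 85.7, 87.1 and 153 CPM (log2 0.64, SE 0.08). *Acat2*, which joins acetyl-CoA units, was at 76, 74.5 and 84.8 CPM and at 67.8, 62.4 and 91.9 CPM (log2 0.34, SE 0.08). The smallest called difference of this role was that of *Idi1* (log2 0.27, SE 0.08), and *Mvk* was not called (log2 0.23, SE 0.11). S138A C decided the calls of *Acat2* and *Idi1*, whose log2 differences without it were 0.18 and 0.16 (adjusted p = 0.105 and 0.135 in edgeR). *Mvk* was called without wild-type 1 (log2 0.32, adjusted p = 0.0421 in edgeR). *Fdps* shares 26.7% of its exonic length with the gene model Gm43738 on the same strand, so its counts depend on how shared reads were treated.

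The 3 genes that lead from farnesyl diphosphate to lanosterol all rose. *Fdft1*, squalene synthase, was at 61, 60.7 and 97.8 CPM in wild-type 1 to 3 and at 59.1, 59.2 and 94.7 CPM in S138A A to C (log2 0.68, SE 0.06). *Lss*, lanosterol synthase, was at 73.7, 69.4 and 100 CPM and at 75.3, 72.5 and 128 CPM (log2 0.64, SE 0.08). *Sqle*, the squalene epoxidase that is a control point of the pathway, was at 99.6, 90.4 and 127 CPM and at 94.8, 86 and 125 CPM (log2 0.44, SE 0.07). In each of the 3 genes wild-type 1 and 2 and S138A A and B lay close together, with wild-type 3 and S138A C above them. *Ctsb*, on the other strand, overlaps 18.3% of the exonic length of *Fdft1*.

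The sterol steps convert lanosterol to cholesterol, and 3 of their genes had differences above 1 on the log2 scale, as did *Insig1* among the control genes. *Dhcr7* (ENSMUSG00000058454), a reductase of the last step, was at 31.4, 33.9 and 78.8 CPM in wild-type 1 to 3 and at 29.5, 33.6 and 96 CPM in S138A A to C. This was 2.72-fold (log2 1.44, SE 0.09), the largest difference of any member. The methylsterol monooxygenase *Msmo1* was at 66.3, 65.4 and 133 CPM and at 60.3, 58.6 and 152 CPM (log2 1.19, SE 0.08). *Tm7sf2* was at 5.87, 5.38 and 10.3 CPM and at 4.67, 5.49 and 14.2 CPM (log2 1.18, SE 0.15). In each of these 3 genes S138A C was the highest library and wild-type 3 the next. *Tm7sf2* shares 12.1% of its exonic length with *Vps51* on the same strand, so its counts depend on how shared reads were treated. *Cyp51*, the demethylase of lanosterol, was at 59.5, 66.7 and 104 CPM and at 54.9, 54.4 and 114 CPM (log2 0.90, SE 0.09). *Nsdhl*, a dehydrogenase that helps to remove methyl groups, was at 22.1, 19.9 and 26.1 CPM and at 19.8, 17.6 and 35.6 CPM (log2 0.63, SE 0.13). The desaturase *Sc5d* was at 22.3, 19.7 and 29.5 CPM and at 18.5, 19.8 and 28.5 CPM (log2 0.53, SE 0.08). All of these were higher in both wild-type 3 and S138A C than in any of the other 4 libraries, though *Nsdhl* was not called without S138A C (log2 0.32, adjusted p = 0.051 in edgeR). The ketosteroid reductase *Hsd17b7* was at 22.8, 17.6 and 25.5 CPM and at 19.5, 18.9 and 24.2 CPM (log2 0.34, SE 0.11). Its call was lost when any library other than wild-type 1 was left out (adjusted p of 0.0589 to 0.0918 in edgeR).

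*Ebp*, the sterol isomerase gene, was the exception among the enzymes. It was at 19.2, 19.8 and 13.6 CPM in wild-type 1 to 3 and at 17.6, 18.3 and 16.1 CPM in S138A A to C. Both libraries were below the other 4, and the log2 difference was -0.34 (SE 0.10). Its fall was mostly that of wild-type 3, at -0.52 on the log2 scale against -0.16 in S138A C, and without wild-type 3 it was -0.16 and not called (adjusted p = 0.212 in edgeR). The call was also lost without wild-type 1 or wild-type 2 (log2 -0.32 and -0.31, adjusted p = 0.0715 and 0.065).

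**Figure D3:**
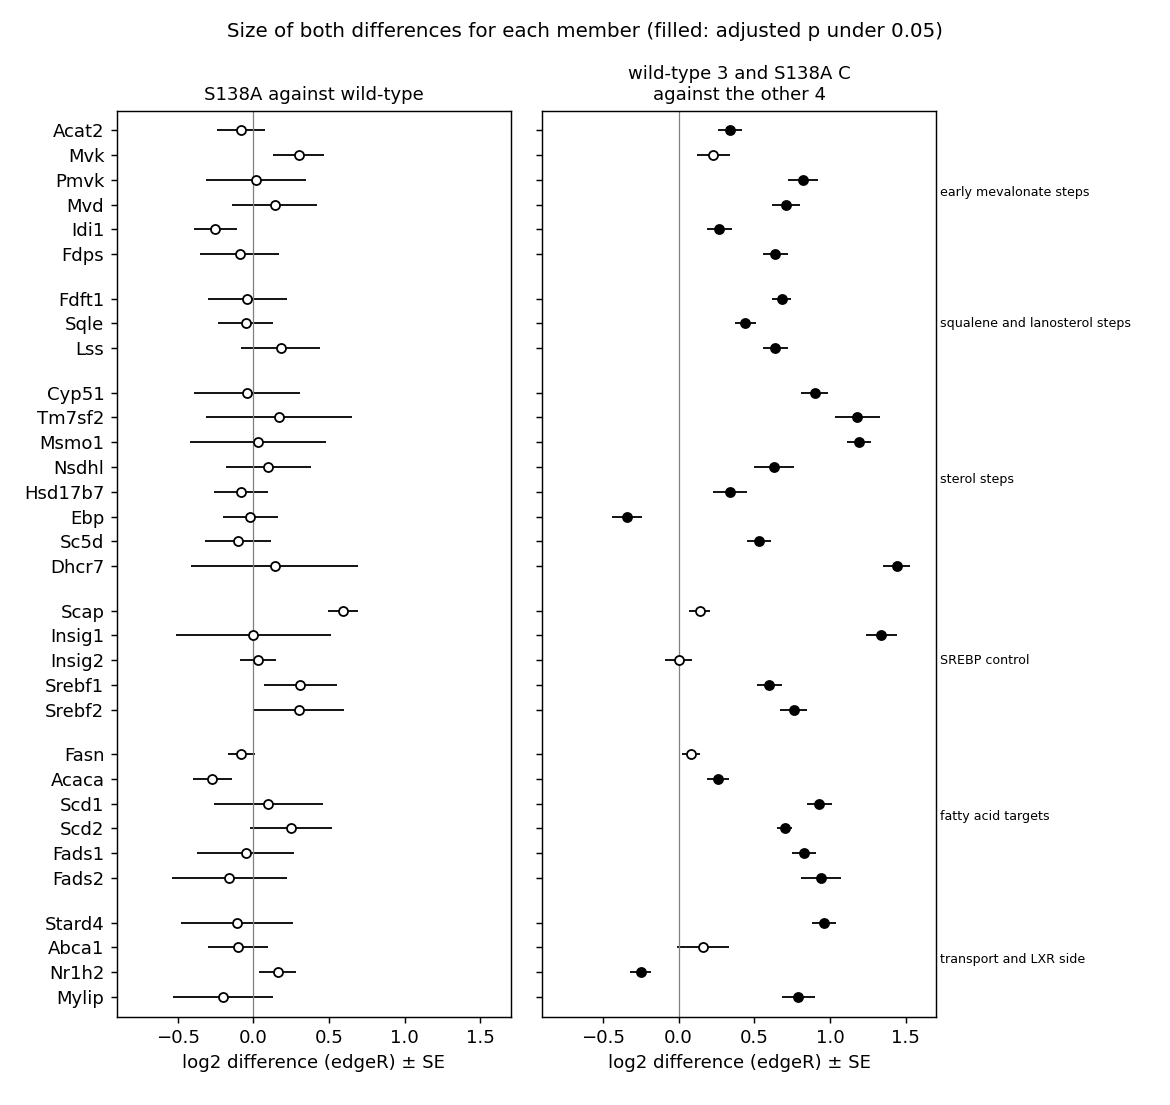
Log2 differences with their SE for each member from edgeR, between the genotypes (left) and between wild-type 3 with S138A C and the other 4 libraries (right), with filled points at an adjusted p under 0.05. On the left 0 points are filled and *Scap* lies farthest from 0 at 0.59, and on the right 27 points are filled, from *Ebp* at -0.34 to *Dhcr7* at 1.44.

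Of the control genes *Insig1* rose most. It was at 90.5, 88.3 and 188 CPM in wild-type 1 to 3 and at 74.5, 72.3 and 220 CPM in S138A A to C (log2 1.34, SE 0.10). *Insig2* did not follow it, at 21.5, 21 and 19.2 CPM and at 20.8, 19.8 and 22.4 CPM (1-fold, SE 0.09 on the log2 scale). Per kilobase, *Insig1* stood 4.74 and 4.73 times above *Insig2* in wild-type 1 and 2, 4.01 and 4.11 times in S138A A and B, and 11 times in S138A C and in wild-type 3. *Srebf2* (log2 0.76, SE 0.09) and *Srebf1* (log2 0.60, SE 0.08) also rose, by the values per library given above. *Scap*, the member with the largest genotype difference, differed little between these libraries (log2 0.14, SE 0.07, not called). With upper-quartile factors *Scap* was called higher here (log2 0.20, adjusted p = 0.0352 in edgeR).

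Of the fatty acid genes, those of the desaturases rose and those of chain synthesis moved less. *Fads2* was at 22.7, 26.7 and 38.8 CPM in wild-type 1 to 3 and at 16.9, 19.5 and 42.4 CPM in S138A A to C (log2 0.94, SE 0.13). *Scd1* was at 98.3, 97.1 and 168 CPM and at 98.2, 91.7 and 200 CPM (log2 0.93, SE 0.08). *Fads1* was at 65.6, 69 and 107 CPM and at 59.6, 58 and 116 CPM (log2 0.83, SE 0.08). The desaturase *Scd2*, the member with the highest level per kilobase, rose as well (log2 0.70, SE 0.05). *Acaca* was raised by 0.26 (SE 0.07), with overlap between the libraries, and was not called without wild-type 3 (log2 0.22, adjusted p = 0.0674 in edgeR). *Fasn* was at 707, 769 and 820 CPM and at 715, 729 and 726 CPM, a log2 difference of 0.08 (SE 0.06) that was not called.

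On the transport side *Stard4*, which carries cholesterol between membranes and is an SREBP target, rose with the enzymes. It was at 86.5, 83.5 and 149 CPM in wild-type 1 to 3 and at 67.9, 73.6 and 153 CPM in S138A A to C (log2 0.96, SE 0.08). *Mylip* was at 6.51, 6.14 and 10.6 CPM and at 5.45, 5.22 and 9.57 CPM (log2 0.79, SE 0.11). *Nr1h2*, the gene of the receptor LXR-beta, fell in both genotypes, at 64.2, 67.6 and 55.2 CPM and at 70.1, 76.8 and 62.3 CPM (log2 -0.25, SE 0.07). Without wild-type 2 *Nr1h2* was not called (log2 -0.23, adjusted p = 0.0541 in edgeR). *Abca1*, the cholesterol exporter that LXR raises, had a difference of 0.16 on the log2 scale (SE 0.17) that was not called. Without wild-type 3 it was called higher in S138A C (log2 0.57, adjusted p = 0.00326 in edgeR), and without S138A C its sign turned (log2 -0.29).

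Measured within each genotype, the difference had the same direction for nearly all members. Wild-type 3 over the mean of wild-type 1 and 2, and S138A C over the mean of S138A A and B, were both above 0 for 28 of 32 members, where this held for 39.3% of all genes, and both below 0 for *Ebp* and *Nr1h2*. *Insig2* and *Abca1* moved in opposite directions. The median log2 difference over the members was 0.52 within wild-type cells and 0.75 within S138A cells. The second was the larger for 26 of 32 members, and for 50.7% of all genes. These differences are signed, and only 49.9% of all genes had a difference above 0 in wild-type 3 and S138A C. The share over all genes is therefore no like measure for members that mostly rose. For *Dhcr7* the values were 1.27 and 1.61, for *Tm7sf2* 0.87 and 1.48, and for *Nsdhl* 0.31 and 0.93. *Fdft1* (0.68 in each), *Hsd17b7* (0.34 in each), *Srebf1* (0.60 in each) and *Scd2* (0.70 in each) were the same in both genotypes to the second decimal.

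**Figure D4:**
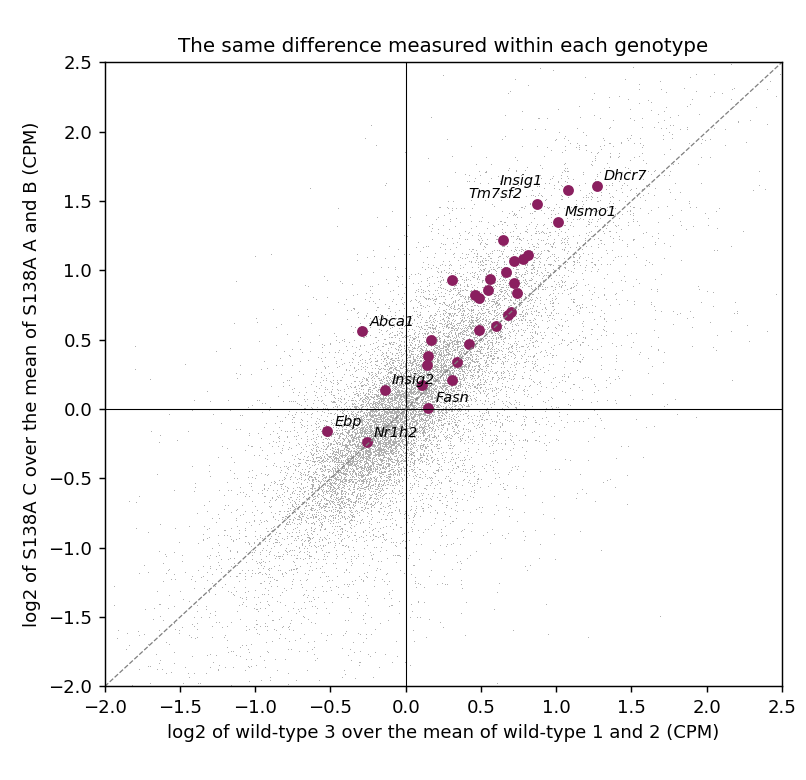
The log2 difference of wild-type 3 from wild-type 1 and 2 (horizontal) against that of S138A C from S138A A and B (vertical), with members as large points, other tested genes as small points, and a dashed line of equal size; genes beyond the axes are not drawn. 28 members lie above 0 on both axes and 26 lie above the line, with *Abca1* and *Insig2* at the upper left.

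The test of whether this difference was unequal between the genotypes, an interaction in edgeR with 2 residual degrees of freedom, called 2 members, where 2.98% of all genes were called. *Insig1* rose by 0.51 more on the log2 scale in S138A cells (SE 0.10, adjusted p = 0.0393), 1.08 within the wild type and 1.58 within the mutant. *Abca1* was at 33.4, 33.8 and 27.5 CPM in wild-type 1 to 3 and at 27.6, 23.2 and 37.6 CPM in S138A A to C. It was lowest in wild-type 3 among wild-type libraries and highest in S138A C among all 6, a difference of 0.85 (SE 0.16, adjusted p = 0.0352). These calls rest on wild-type 3 and S138A C alone, and the spread they are set against is that between the other libraries. For the other 30 measured members no difference between the genotypes in this respect was called, which does not show that they were alike.

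Markers of cell types were read in both comparisons. Between the genotypes, the summed level of the 7 markers of fibroblasts and feeder cells was 40.7 to 64.6 CPM in wild-type and 68.2 to 112 CPM in S138A libraries. *Col1a1*, *Col3a1* and *Thy1* were higher in all 3 mutant libraries and were called with the block (adjusted p = 0.0362, 0.0161 and 0.00882, edgeR). *Col1a1* was at 21.1, 20.5 and 36.1 CPM in wild-type 1 to 3 and at 68.8, 75 and 37.9 CPM in S138A A to C. *Col1a2* (log2 -0.26) and *Postn* (log2 0.37) overlapped between the genotypes and were not called with the block. *Lum* and *Dcn* did not pass the filter, with at most 5 counts in a library. In the other lists the block also called *Pax6* (log2 -1.56), *Neurod1* (-0.96) and *Zfp42* (-0.36) lower and *Apob* (0.76) higher in S138A cells. It called 19.8% of all genes. The part of these markers in the genotype differences of *Scap* and the other members was not tested. Between the library groups, 25.9% of all genes were called higher and 25.2% lower, so calls of single markers are common there. The summed level of the 7 markers of embryonic stem cells was 7030 to 7080 CPM in wild-type 3 and S138A C. In the other 4 libraries it was 6320 to 6620 CPM. Of these 7 markers, 4 were called higher and 1, *Pou5f1*, was called lower (1020 and 954 CPM against 1360 to 1430). The 4 listed neural markers, 3 of them in the table, summed to 71.9 to 95 CPM against 121 to 144 CPM, with *Nes* and *Pax6* called lower and *Neurod1* called higher (log2 -1.13, -1.33 and 1.14). The 10 markers of primitive and visceral endoderm summed to 18.1 to 29.3 against 21.3 to 22.8 CPM. Of these, *Sox7* and *Foxa2* were called lower and *Dab2* higher (log2 -1.68, -2.79 and 0.66), with *Foxa2* at no more than 0.443 CPM. The fibroblast and feeder markers summed to 64.6 to 68.2 against 40.7 to 112 CPM, with *Col1a2* called higher (log2 0.86). The 3 blood markers summed to at most 0.21 CPM in any library, with *Hbb-bt* at 0 in all. The part of these differences in the result for the sterol genes was not tested, and the labels name no feature that wild-type 3 and S138A C share.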

How the data were processed

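PolyA RNA libraries of 3 wild-type and 3 *Ube2d3*-S138A E14 ESC samples were prepared with a kit that keeps the strand. According to the submitters' processing notes, bases were called with CASAVA version 1.8.4 and TopHat2 version 2.0.11 placed the reads on mm9 (NCBIM37), and the authors deposited raw counts per gene made with featureCounts. Whether counting used the strand or reads that fit several genes is not given in the sources used here, so genes that overlap others are uncertain. The table held 0 spike-in rows and 0 rows that name no gene, and 0 columns were left out. The wild-type columns match the labels by name, and those of S138A cells were assigned to that genotype as a group.

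Counts were filtered with filterByExpr (minimum count 10, minimum total 15), scaled by TMM and tested with edgeR version 4.0.16 in R version 4.3.3, on 16023 genes with Benjamini-Hochberg adjustment over all of them. The fits were tested on simulated data. The F statistic gave the standard error, as the absolute log2 difference over its square root. Gene names, exonic lengths and overlaps came from GENCODE M21 and promoters from RefSeq, both on GRCm38 and matched by identifier or symbol, since no coordinates on mm9 were used. Libraries held 33227593 to 37169770 counts, and all 32 members with a row passed the filter at this depth. Sequences and figures were made with Python version 3.11.15.

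All 33 members were to be named, by role, with values per library for those called in any fit and for the SREBP and INSIG genes, and for each list of other pathway genes up to 4 members by p. The members and lists were chosen with earlier results of these data known, the split of wild-type 3 and S138A C included. Alternatives were upper-quartile and RLE factors, filters of 1 count in any library or 1 CPM in 3 libraries, DESeq2 version 1.42.0, limma-voom (limma version 3.58.1), an adjusted p of 0.01, each library left out, the replicate block, a term that sets S138A C and wild-type 3 apart, and the other 4 libraries alone. The replicate numbers were taken from the final digits of the column names, not from a stated design. Deviations from the group means correlated at 0.629, 0.583 and 0.792 for the 3 pairs of the same digit, and at 0.633 and 0.62 with the digits 1 and 2 crossed.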

Additional observations from a re-analysis of the deposited data

Results flagged for a closer look

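A difference between the genotypes in how wild-type 3 and S138A C stood against their other libraries was found for *Insig1*, by edgeR's test of the interaction. The log2 difference was 0.51 larger in S138A cells (adjusted p = 0.0393), with S138A C at 220 CPM against 74.5 and 72.3 CPM, and wild-type 3 at 188 CPM against 90.5 and 88.3 CPM. The same test called *Abca1*, whose interaction was 0.85 on the log2 scale (adjusted p = 0.0352), as it fell in wild-type 3 and rose in S138A C. *Insig2* was lower in wild-type 3 than in wild-type 1 and 2 (19.2 against 21.5 and 21 CPM) and higher in S138A C than in S138A A and B (22.4 against 20.8 and 19.8 CPM). For this gene the difference between the genotypes, 0.28 on the log2 scale, was listed for its opposite directions and was not called by the interaction test (adjusted p = 0.265, edgeR). With 2 residual degrees of freedom and 1 library per cell of the design standing apart, these calls rest on wild-type 3 and S138A C alone.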

How the results depend on the processing

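Between the genotypes, the number of genes called was 0 with RLE or upper-quartile factors, limma-voom, the filter of 1 CPM in 3 libraries and an adjusted p of 0.01. It was 4 without a filter beyond 1 count, 794 with DESeq2, 3180 with the replicate block, 4418 with the term for wild-type 3 and S138A C, 4756 in the other 4 libraries, and 0 to 79 with each library left out, reaching 79 without S138A C. Members called higher numbered 1 with DESeq2, 3 with the block, 4 with the term and 3 in the 4 libraries, and members called lower 1 with the block, 2 with the term and 9 in the 4 libraries. The median member difference was -0.10 in the 4 libraries and ran from -0.31 to 0.21 with each library left out. Signs of the genotype difference turned in the 4 libraries for 8 of 32 members, *Pmvk* (log2 -0.07), *Mvd* (-0.01), *Tm7sf2* (-0.15), *Msmo1* (-0.15), *Nsdhl* (-0.17), *Dhcr7* (-0.05), *Insig2* (-0.07) and *Scd1* (-0.04). They turned for *Pmvk* with limma-voom (-0.02) and with the block or the term (0), for *Msmo1* with limma-voom (-0.04) and with the block or the term (-0.03), for *Ebp* with upper-quartile factors (0.02), limma-voom (0.01) and the block or the term (0), and for *Insig1* with upper-quartile factors (0.03) and the 1 CPM filter (0.01). With each library left out, signs turned for 25 members, 12 of them without wild-type 3 and 12 without S138A C. Their values ran from -0.27 to 0.02 for *Acat2*, -0.35 to 0.30 for *Pmvk*, -0.22 to 0.34 for *Mvd*, -0.43 to 0.07 for *Fdps*, -0.31 to 0.22 for *Fdft1*, -0.23 to 0.10 for *Sqle*, -0.14 to 0.36 for *Lss*, -0.49 to 0.24 for *Cyp51*, -0.50 to 0.53 for *Tm7sf2*, -0.57 to 0.45 for *Msmo1*, -0.28 to 0.28 for *Nsdhl*, -0.22 to 0.04 for *Hsd17b7*, -0.17 to 0.08 for *Ebp*, -0.32 to 0.08 for *Sc5d*, -0.61 to 0.70 for *Dhcr7*, -0.74 to 0.45 for *Insig1*, -0.02 to 0.07 for *Insig2*, -0.09 to 0.51 for *Srebf2*, -0.36 to 0.41 for *Scd1*, -0.03 to 0.52 for *Scd2*, -0.46 to 0.21 for *Fads1*, -0.70 to 0.09 for *Fads2*, -0.59 to 0.21 for *Stard4*, -0.32 to 0.04 for *Abca1* and -0.54 to 0.09 for *Mylip*. Apart from the calls given here and in the report, the replicate block changed no call of a member. When S138A C and wild-type 3 were set against the other 4, members called higher ran from 21 to 26 and members called lower from 0 to 2 with each library left out. Members called lower numbered 1 with upper-quartile factors, 0 without the genotype term and 0 at an adjusted p of 0.01. The median was 0.52 within wild-type cells and 0.75 within S138A cells, the same range as with each library left out (0.52 to 0.75), and the differences of *Insig2* (-0.14 to 0.14) and *Abca1* (-0.29 to 0.57) changed sign. With upper-quartile factors the median of all genes was 0.058 and that of members 0.70. There *Nr1h2* was not called (adjusted p = 0.0525, edgeR) and *Scap* was called higher (log2 0.20, adjusted p = 0.0352, edgeR). At an adjusted p of 0.01 the interaction called 0 members. The cause of these changes was not tested.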

Other observations

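Other genes of sterol and fatty acid metabolism were listed beside the members. Of 17 further SREBP and sterol synthesis genes, 11 were higher in wild-type 3 and S138A C (64.7%, where 25.9% of all genes were) and 1 was lower (5.88%, where 25.2% were), with a median log2 difference of 0.39. The phosphatidate phosphatase gene *Lpin1* was at 24.2, 24.8 and 57.1 CPM in wild-type 1 to 3 and at 29.2, 29.2 and 70.5 CPM in S138A A to C (log2 1.25, SE 0.06), and the retinol dehydrogenase gene *Rdh11* rose by 1.12 (SE 0.08), *Acsl3* by 0.83 (SE 0.08) and *Acacb* by 0.67 (SE 0.08). Of 17 genes of sterol transport and LXR targets, 11 were higher (64.7%) and 1 was lower (5.88%), with a median of 0.63. Among them were the lipoprotein receptor genes *Vldlr* (log2 1.64, SE 0.15) and *Scarb1* (log2 1.37, SE 0.08), the exporter *Abcg1* (log2 1.34, SE 0.15) and the sterol transfer gene *Gramd1a* (log2 0.64, SE 0.08).

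The shares called in the other 2 lists lay nearer those of all genes. Of 11 isoprenoid genes, 4 were lower (36.4%) and 1 was higher (9.09%), with a median of -0.18. The prenyl diphosphate synthase gene *Pdss1* was at 19.6, 20.4 and 10.2 CPM in wild-type 1 to 3 and at 16.8, 17.6 and 9.09 CPM in S138A A to C (log2 -0.95, SE 0.09). The dolichol kinase gene *Dolk* had a log2 difference of -0.92 (SE 0.11) and the farnesyltransferase gene *Fntb* of -0.47 (SE 0.08), whereas *Coq2* of ubiquinone synthesis rose (log2 0.55, SE 0.08). Of 13 genes of SREBP processing and sterol regulation in the endoplasmic reticulum, 2 were higher (15.4%) and 5 lower (38.5%), with a median of -0.07. The protease gene *Mbtps2* rose (log2 0.58, SE 0.09), and the ligase genes *Syvn1* (log2 -0.61, SE 0.07) and *Fbxw7* (log2 -0.54, SE 0.07) and the gene of the cofactor *Ufd1* (log2 -0.52, SE 0.08) fell. Between the genotypes edgeR called 0 genes of these 4 lists in all 6 libraries with no further term. With the block, where 19.8% of all genes were called, it called 5 higher and 2 lower of the SREBP and sterol list, 0 and 1 of the isoprenoid list, 1 and 0 of the regulation list, and 4 and 0 of the transport list, which is 41.2%, 9.09%, 7.69% and 23.5% of the lists. With the term for wild-type 3 and S138A C, where 27.6% of all genes were called, the shares in this order were 41.2%, 27.3%, 15.4% and 35.3%. In the other 4 libraries, where 29.6% of all genes were called, they were 47.1%, 27.3%, 15.4% and 29.4%. The receptor gene *Lrp1*, named after its values were seen, was at 81.1, 84.7 and 109 CPM in wild-type 1 to 3 and at 180, 178 and 229 CPM in S138A A to C (log2 1.10, SE 0.07, adjusted p = 0.00237 with the block in edgeR).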
